A study of Homo sapiens with 7 samples.

Results

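MYCN binding sites within the large zinc-finger gene clusters of human chromosome 19 are described here. A member is a peak summit (the position of locally highest ChIP signal) that lies in 1 of 4 windows of chromosome 19 on the genome build hg19: window 1 from 19800000 to 24400000, window 2 from 36700000 to 38300000, window 3 from 44300000 to 45000000 and window 4 from 52300000 to 59100000. By this rule, which uses position alone, 540 of 64657 summits in the deposited list were members, out of 3313 on chromosome 19. They fell in 376 separate peak intervals. The other 2773 summits of the chromosome served for comparison.

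The list comes from ChIP-seq (immunoprecipitation of sheared, crosslinked chromatin followed by sequencing) with an antibody to MYCN in Kelly cells, an established neuroblastoma line with amplified MYCN and mutant ALK. Per the labels, 2 MYCN samples and 1 input sample (sheared chromatin with no antibody) came from cells sensitive to the ALK inhibitor TAE684 and kept in DMSO for 48 h. A further 2 MYCN samples and 2 input samples came from resistant Kelly cells kept in TAE684 at 1 µM for 48 h. The list deposited for the resistant cells equalled that of the sensitive cells in 64657 of 64657 rows and carried the sensitive name in 64657 of them. No comparison of the states could therefore be made, and all values refer to the sensitive cells. Since a single list stands for both MYCN samples, no value has a replicate error and no test over samples was possible. Differences between windows are described by counts and by 95% intervals, which cover counting error only and treat summits as independent although neighbours are not.

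MYCN, the MYC family protein of neuroblastoma, pairs with MAX through its helix-loop-helix and leucine zipper and binds E-box DNA, most strongly CACGTG. Zinc-finger proteins of the KRAB class form the largest family of human transcription factors. Their finger arrays bind DNA, many of them within transposable elements, and their KRAB domain recruits the corepressor TRIM28, which brings in heterochromatin. The genes arose by repeated tandem duplication, which left long rows of related neighbours on chromosome 19.

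In the RefSeq gene table (assembly GRCh38.p14), 266 of 561 protein-coding genes with a zinc-finger symbol lie on chromosome 19. A zinc-finger symbol here begins with ZNF, ZFP, ZSCAN or ZIM, or is ZIK1, HKR1, MZF1 or PEG3, and ZFP36 was left out because its fingers are of another class. Their order along the chromosome gives 8 unbroken runs of at least 10 such genes. A run of 27 genes extends from ZNF737 to ZNF681, a family that by textbook map position belongs to window 1. The run of 24 genes from ZNF565 to ZNF793 belongs likewise to window 2, and the run of 20 genes from ZNF283 to ZNF180 to window 3. Runs of 10 genes from ZNF577 to ZNF836, 10 genes from ZNF766 to ZNF83 and 23 genes from ZNF772 to ZNF256 belong to window 4. That window also holds other gene families by textbook map, among them the LILR and KIR receptors of immune cells and the NLRP genes. The runs of 11 genes from ZNF699 to ZNF846 and of 24 genes from ZNF627 to ZNF791 lie on the short arm outside the windows, so the remainder of the chromosome is not free of such genes. The table's positions are on another build than the peaks, so no gene, exon or promoter was assigned to any summit and no peak sequence is shown.

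MYCN summits were sparser in the zinc-finger windows than along the remainder of chromosome 19, and window 1 was the sparsest. The windows held 39.4 summits per Mb (95% CI 36.2 to 42.9), against 61.1 (58.8 to 63.4) elsewhere on the chromosome, a density ratio of 0.646 (0.588 to 0.708). The length of the remainder includes 3.8 Mb around the centromere that hold no summit, which lowers its density. They made up 23.2% of the length up to the last summit and held 16.3% of the summits (15.1 to 17.6). Lengths include sequence to which reads cannot be mapped, and how much of it each window holds was not tested.

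Window 1 held 64 summits in 4.6 Mb, or 13.9 per Mb (10.7 to 17.8). That is 0.228 times the density of the remainder of the chromosome (0.175 to 0.292) and 0.253 times that of window 4 (0.191 to 0.331). Against the remaining short arm alone, where window 1 lies, the ratio was 0.183 (0.141 to 0.236). Window 2 held 69 summits in 1.6 Mb, or 43.1 per Mb (33.6 to 54.6), a ratio of 0.706 (0.548 to 0.897). Window 3 held 33 summits in 0.7 Mb, or 47.1 per Mb (32.5 to 66.2), and its ratio of 0.772 had an interval that includes 1 (0.530 to 1.09). Window 4 held 374 summits in 6.8 Mb, which is 69.3% of all members. Its 55 per Mb (49.6 to 60.9) gave a ratio of 0.901, and this interval also reached 1 (0.806 to 1.00). Against the remaining long arm alone it was 0.944 (0.839 to 1.06). Outside the summit-free stretch at the centromere, 38 bins of 1 Mb elsewhere on the chromosome held 6 to 169 summits with a median of 75.5, and 2 of them held fewer per Mb than window 1. A further 3 bins lay wholly within that stretch and held 0.

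**Figure D1:**
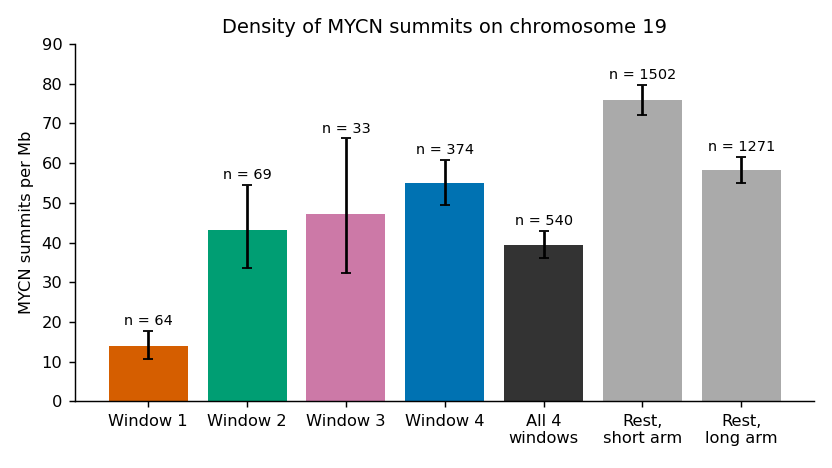
MYCN summits per Mb in each zinc-finger window, in all 4 windows together and in the remaining short and long arm of chromosome 19, with n summits above each bar. Error bars are exact Poisson 95% intervals and cover counting error only. Window 1 stands at 13.9 per Mb, windows 2 to 4 between 43.1 and 55, and the remaining short arm and long arm at 75.9 and 58.3.

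Within the windows the summits were spread unevenly. Each window was divided into bins of 100 kb. In window 1, 20 of 46 bins held no summit (43.5%) and the fullest held 5. In window 4, 12 of 68 bins were empty (17.6%) and the fullest held 25. Windows 2 and 3 had 0 empty bins among 16 and 7, with at most 8 summits in a bin. For the remainder of the chromosome, leaving out the bins within those 3.8 Mb, 47 of 417 bins were empty (11.3%) and the fullest held 40.

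The density of window 4 rested on 2 of its stretches, which were singled out after the counts were seen. The stretch from 55300000 to 56300000 held 98 summits, and the last 0.8 Mb, from 58300000 to 59100000, held 73, or 91.3 per Mb. The other stretches of window 4, each 1 Mb long, held 35 to 56. Without the 2 dense stretches, window 4 held 40.6 summits per Mb, close to window 2. This is 0.665 times the density of the remainder of the chromosome (0.574 to 0.767). A lower ratio is built into this choice, since the remainder kept its fullest bins, with up to 169 summits in 1 Mb. The interval does not cover the choice. The dense stretches also held most of the strongly enriched members of window 4: 25 of their 171 summits reached a fold enrichment of 10 (14.6%, 9.69 to 20.8), against 10 of 203 in the other stretches (4.93%, 2.39 to 8.87). The share did not follow density among the others. It was 14.3% (5 of 35) in the sparsest, from 57300000, and 10.3% (4 of 39) in that from 52300000. The stretch from 56300000 had 1 of 36, and those from 53300000 and 54300000 had 0 of 37 and 0 of 56. Median fold enrichment did not follow the density, with 4.92 in the dense stretches (4.48 to 5.59) and 5.03 in the others (4.66 to 5.36).

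**Figure D2:**
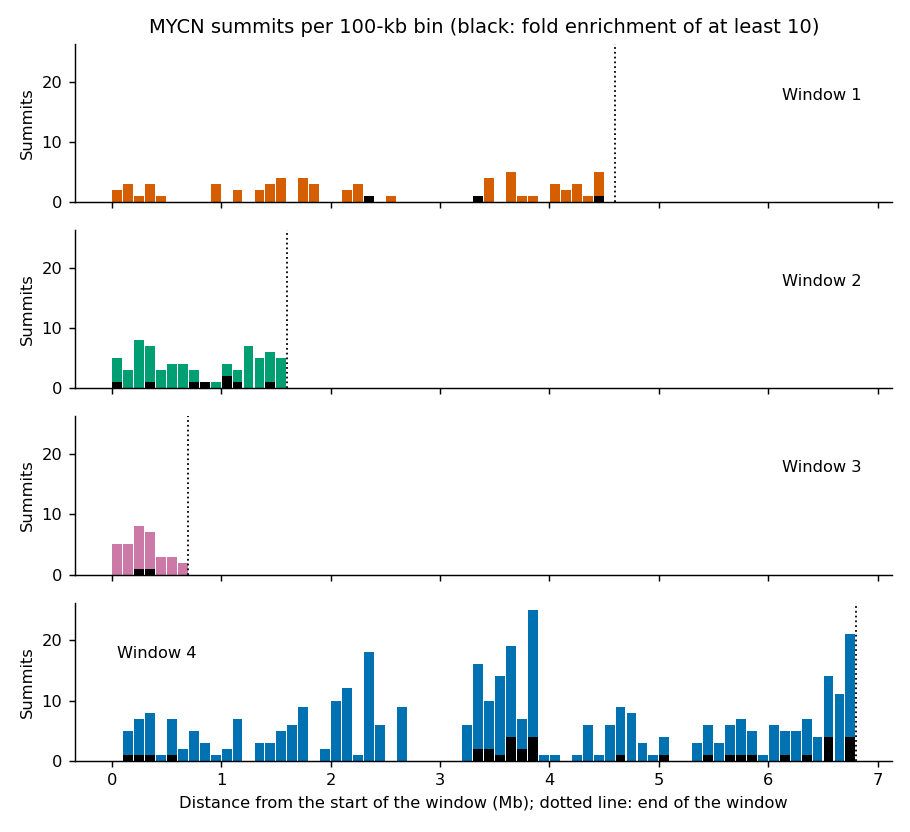
MYCN summits in bins of 100 kb along each window, by distance from the start of the window in Mb; black parts of the bars count summits with a fold enrichment of at least 10. Window 1 never exceeds 5 summits in a bin, while window 4 reaches 25 in a bin 3.8 Mb from its start and 21 in its last bin.

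The 5 fullest bins were all in window 4 and held 99 members, 18.3% of the total in 3.65% of the bins. The bin from 56100000 to 56200000 held 25 summits with a median fold enrichment of 4.92. The last bin of the window, from 59000000 to 59100000, held 21 with a median of 5.68. Next came the bins starting at 55900000 with 19 summits, at 54600000 with 18 and at 55600000 with 16. In the bin at 54600000 no summit reached a fold enrichment of 10, its highest value being 8.07, whereas the other 4 bins held 2 to 4 such summits each.

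In gene order the last bin belongs to the end of the chromosome, where the RefSeq table lists TRIM28, the corepressor of KRAB zinc-finger proteins, as the 4th protein-coding gene from the end of 1451 and MZF1, a zinc-finger gene of the SCAN class, as the last. Strong summits of this bin lay at 59031297 with a fold enrichment of 12.1 over 216 ChIP fragments, at 59025455 with 11.8 over 146, at 59071094 with 10.6 over 180 and at 59055965 with 10.4 over 166. The same bin also held the lowest fold enrichment of all members and of chromosome 19, 1.97 at 59087063. Which summit belongs to which gene was not determined.

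The longest stretches with no summit were in windows 1 and 4. The longest inside a window ran for 801 kb in window 1, between summits at 22327368 and 23128553. In window 4 no summit was listed over 592 kb between 54982673 and 55574470. Window 1 had further summit-free stretches of 462 kb from 20286405 and 261 kb from 21688687, and window 4 one of 271 kb from 56320973.

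Where MYCN did bind, sites in the windows were about as enriched as elsewhere on the chromosome. Fold enrichment is the authors' value for each peak, the ratio of ChIP signal to a local input background at the summit. Its median over the members was 4.87 (95% CI 4.61 to 5.10), with quartiles of 3.61 and 6.93, against 4.94 (4.81 to 5.03) in the remainder of chromosome 19 and 5.35 (5.33 to 5.38) over the whole list. The median was 4.16 (3.53 to 4.91) in window 1, 4.86 (4.21 to 5.82) in window 2, 4.53 (3.78 to 5.17) in window 3 and 5.02 (4.74 to 5.34) in window 4. The intervals of windows 2, 3 and 4 include the median of the remainder of the chromosome, and that of window 1 ends just under it.

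In all, 48 members had a fold enrichment of 10 or more, or 8.89% (6.63 to 11.6), against a background of 12.0% over the whole list and 9.02% (7.98 to 10.1) in the remainder of chromosome 19. Window 4 held 35 of them (9.36%, 6.61 to 12.8), window 2 held 8 (11.6%, 5.14 to 21.6), window 1 held 3 (4.69%, 0.977 to 13.1) and window 3 held 2 (6.06%, 0.743 to 20.2). The share was therefore under that of the whole list both inside and outside the windows, and the interval of each single window included 12.0%. These 48 summits had 40 to 267 ChIP fragments (median 164) over backgrounds of 1.61 to 12 input fragments (median 8), and 22 of them were alone in their interval. Of the 100 summits of highest fold enrichment on chromosome 19, 11 were members (11.0%, 5.62 to 18.8), beside their share of 16.3% of all its summits. Weakly supported summits were somewhat more common among members, most clearly in window 1. A −log10 q-value under 5 was found in 16.9% of members (13.8 to 20.3), against 11.7% (10.5 to 13) of the remaining summits. Over the whole list the share was 12.4%. It was 28.1% (17.6 to 40.8) in window 1, 18.8% (10.4 to 30.1) in window 2, 15.2% (5.11 to 31.9) in window 3 and 14.7% (11.3 to 18.7) in window 4. The intervals of windows 2, 3 and 4 include both 11.7% and 12.4%.

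**Figure D3:**
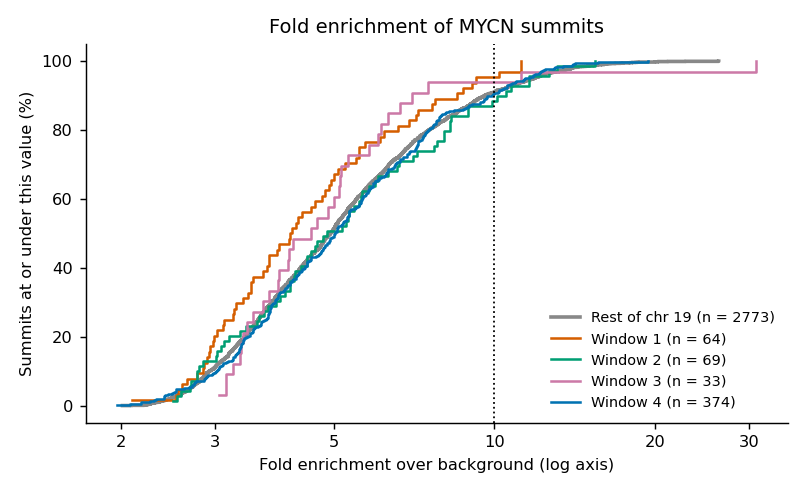
Share of summits at or under each fold enrichment (log axis) for each window and for the remainder of chromosome 19, with a dotted line at 10. The curves of windows 2 and 4 run along that of the remainder, window 1 lies to its left with a median of 4.16, and window 3 ends with a single summit at 31.0.

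The strongest member by fold enrichment was also the strongest site of chromosome 19 by that measure. It lay in window 3, in an interval from 44616152 to 44616568 with its summit at 44616381, where fold enrichment stood at 31.0 and the −log10 q-value at 102. By fold enrichment it ranked 1st of 3313 summits on the chromosome and 61st in the whole list. The highest −log10 q-value was 138 among the members and 173 in the remainder of the chromosome. It was the only member with a fold enrichment of at least 20, a level reached by 6 of the other 2773 summits of the chromosome. Its ChIP signal was not exceptional for the chromosome: 128 fragments covered it, which ranked 587th there, over a background of only 1.68 input fragments. Within window 3 this was the highest number. At backgrounds of up to 2, the median was 34 ChIP fragments in 13 members and 28 in 23 other summits of the chromosome. A second interval 551 bp away, with its summit at 44617450, reached a fold enrichment of 6.65 with 71 ChIP fragments over a background of 6. The only other summit of window 3 above 10, at 44529441, had 11.2, and the remaining 31 summits of that window ran from 3.05 to 7.51.

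The member of next highest fold enrichment was in window 4, from 52641855 to 52642311. Its summit at 52642137 reached 19.4 with 180 ChIP fragments over a background of 5. It ranked 9th on the chromosome. An interval of window 4 from 56151228 to 56152925 reached 15.7 and was the widest of all members, at 1698 bp with 5 summits. Its main summit, at 56151574, had 267 ChIP fragments, the most of any member and the third highest number on chromosome 19. In the whole list no summit had more than 280. In window 2 the site of highest fold enrichment lay from 37063858 to 37064447 and reached 15.4 with 191 fragments.

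The other 6 of the 10 members of highest fold enrichment had values of 13 to 14.1. Of these, 5 were in window 4, at summits 55987596 (14.1), 56092310 (14.0), 57946572 (14.0), 55919525 (13.4) and 55727918 (13), and 1 was in window 2, at 37701578 (13.1). The last had only 76 ChIP fragments over a background of 2.80, whereas the summits in window 4 had 173 to 250 fragments over backgrounds of 7 to 11. By ChIP fragments the leading members were 56151574 with 267, 55919525 with 250, 55987596 with 249, 36706091 in window 2 with 234 and 55727918 with 226. Thus 4 of these 5 were also among the 10 of highest fold enrichment, and the strongest member by fold was not among them.

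At the lower end, the 5 members of lowest fold enrichment had values of 1.97 to 2.18 over backgrounds of 13 to 22 input fragments. They were the summits at 59087063, 55686579, 55896386 and 56915421 in window 4 and 20162824 in window 1. Each held 46 to 69 ChIP fragments, within the middle range of the members, while each background was above the members' upper quartile of 10.5.

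ChIP fragments and background were recovered for each summit from its fold enrichment and p-value. Members were covered by a median of 67 ChIP fragments (63 to 72), with quartiles of 46 and 98.3. The median was 71 (69 to 73) in the remainder of the chromosome and 63 over the whole list. Window 1 stood lowest with a median of 47 (40 to 53), followed by window 3 with 61 (48 to 73), window 2 with 63 (56 to 93) and window 4 with 74.5 (68 to 81). The median local background was 8.12 input fragments (8 to 9) over the members, 9 (8.96 to 9) over the remainder and 7.56 over the whole list. It was 7 (6 to 8) in window 1, 7.84 in window 2, 8 in window 3 and 9 (8.4 to 9) in window 4. The lowest value a background takes in the list, 1.61, was read as the genome-wide input mean, which was not computed from reads.

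Compared at like background, members and other summits of the chromosome had similar fold enrichments. With a background above 4 and up to 8 input fragments, the median was 5 in 223 members (4.53 to 5.31) and 4.81 in 1033 others (4.70 to 4.97). With 8 to 12 it was 4.82 in 210 members (4.4 to 5.32) and 5.06 in 1203 others (4.86 to 5.30). Above 12 it was 3.97 in 63 members (3.51 to 4.74) and 4.43 in 415 others (4.17 to 4.77). With 2 to 4 it was 4.82 in 31 members (4.15 to 6.50) and 5.76 in 99 others (5.20 to 6.16), and up to 2 it was 8.75 in 13 members (6.11 to 11.2) and 7.27 in 23 others (5.80 to 10.6). In each of the 5 classes the intervals overlap, which does not show that the groups are equal.

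**Figure D4:**
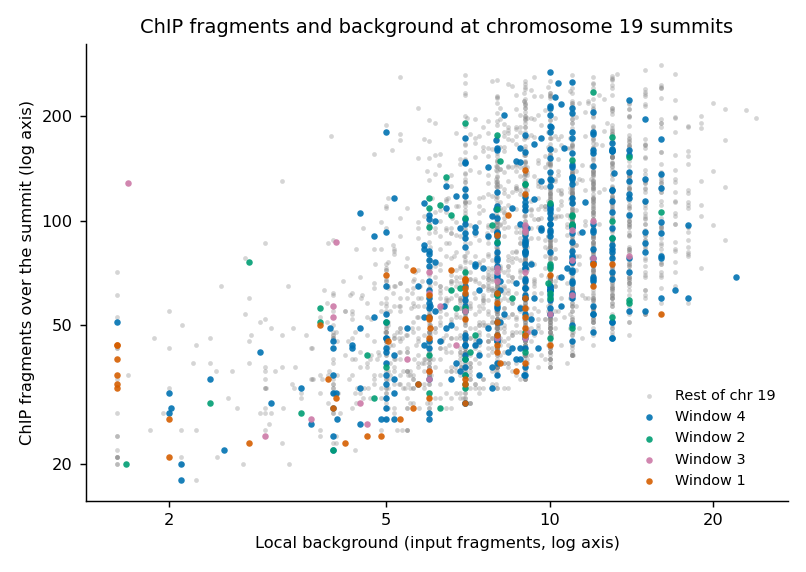
ChIP fragments over each summit against its local background in input fragments (both log axes), for the members by window and for the remaining summits of chromosome 19 in grey. Members overlie the grey points. A window 1 group stands at the far left at the lowest background, 1.61, with 33 to 44 ChIP fragments. The member of highest fold enrichment, in window 3, stands alone near this group at 128.

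Window 1 also held a small group of mostly narrow sites at that lowest background, noticed after the values were seen. At 6 of its 64 summits (9.38%, 3.52 to 19.3) the background stood at this lowest value, against 16 of 2773 (0.577%, 0.330 to 0.935) in the remainder of the chromosome and 1 of 374 in window 4. Windows 2 and 3 had 0 among 69 and 33, which allows shares of up to 5.21% and 10.6% (exact upper limits). Over the whole list the share was 7.01%. These 6 summits had fold enrichments of 8.50 to 11.2 from only 33 to 44 ChIP fragments, and their 5 intervals were 175 to 536 bp wide. Of these intervals, 3 had no other interval within 100 kb. The 3 members of window 1 above a fold enrichment of 10 all belonged to this group: 22130777 and 23128553, each with 11.2 and 44 fragments, and 24258619 with 10.2 and 40 fragments. The summits at 22327368 and 23128553 border the 801 kb with no summit. The other 58 summits of window 1 had medians of 3.93 for fold enrichment and 49.5 for ChIP fragments. Since the background divides the fold, a high fold is built into the choice of this group.

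By ChIP fragments the strongest site of window 1 was of the other kind. It lay from 19976513 to 19977088 and had 140 fragments over a background of 9, giving a fold enrichment of 9.08. The widest interval of the window, from 23869449 to 23870215, spanned 767 bp, held 3 summits and reached 5.73. An interval from 21324766 to 21325250 held 4 summits within 485 bp, and their fold enrichments ran only from 2.60 to 3.03.

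In shape, intervals of the windows were wider than others and more often held several summits. Their median width was 369 bp (338 to 410), against 313 bp (299 to 327) in the remainder of the chromosome and 279 bp over the whole list. A single summit was found in 68.1% of them (63.1 to 72.8), against 75.1% (73.1 to 77.0) and 76.4%. The difference was in intervals with 2 summits, which made up 23.1% in the windows and 17.2% in the remainder, whereas intervals with 4 or more made up 2.13% and 1.96%. Windows 1, 2 and 3 had 61.9% (45.6 to 76.4), 60.9% (45.4 to 74.9) and 65.2% (42.7 to 83.6) of intervals with 1 summit and window 4 had 70.6% (64.7 to 76.0). Of these, only the interval of window 2 leaves out 75.1%. Among summits with a −log10 q-value of at least 5, the share in the windows was 75.9%, with no value of the remainder to set beside it. Neighbouring summits within an interval lay a median of 286.5 bp apart in the windows and 289 bp apart in the remainder. The widest intervals of windows 2 and 3 spanned 1293 bp from 38145975, with a highest fold enrichment of 12.7, and 687 bp from 44645451, with 5.82.

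The highest fold enrichment of an interval was compared by its number of summits. In window 4 the median of the highest fold enrichment was 5 in 187 intervals with 1 summit, 6.56 in 56 with 2, 10.1 in 16 with 3 and 10.2 in 6 with 4 or more. In window 1 these medians were 4.91 in 26 intervals, 4.62 in 11 and 5.32 in 4, and the single interval with 4 summits reached 3.03. In window 2 intervals with 1, 2 and 3 summits had medians of 4.66 (28), 7.48 (14) and 5.35 (3), and in window 3 of 5.01 (15), 4.82 (6) and 6.07 (2), with the number of intervals in parentheses. Windows 1 to 3 hold too few intervals of several summits to give an order, and the difference between windows was not tested. A highest value grows with the number of summits it is taken from, so a rise is partly built in.

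The windows also differed in the spacing of their sites, which is not independent of their density. Distances were measured from the edge of each interval to the nearest other interval. A neighbour within 10 kb was present for 54.3% of the intervals in the windows (49.1 to 59.4), against 75.3% (73.3 to 77.1) in the remainder of the chromosome and 59.7% over the whole list. The share was 9.52% in window 1 (2.66 to 22.6) and 21.7% in window 3 (7.46 to 43.7), but 60.9% in window 2 (45.4 to 74.9) and 63.0% in window 4 (56.9 to 68.8). The median distance was 34.5 kb in window 1, 19.7 kb in window 3, 4.84 kb in window 4, 2.51 kb in window 2 and 3.21 kb in the remainder.

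Near neighbours in windows 1 to 3 were mostly very near. In window 1, 4 of 42 intervals had a neighbour within 1 kb and the same number within 10 kb, so none had its nearest neighbour between these distances. In window 3 the numbers were 4 and 5 of 23. In window 2, 20 of 46 intervals (43.5%, 28.9 to 58.9) had a neighbour within 1 kb and 28 within 10 kb. The share within 1 kb was 32.5% in window 4, 34.2% in the remainder of the chromosome and 29.4% over the whole list. The confidence interval of window 2 includes each of these shares. When intervals within 2 kb of each other were joined, windows 1 to 4 held 40, 35, 21 and 210 separate sites. The median gap between joined sites was 68.1 kb in window 1, 41.2 kb in window 2, 27.0 kb in window 3 and 18.8 kb in window 4, against 14.3 kb in the remainder of the chromosome. In window 2, joined sites of several intervals were 31.4% of all, against 24.1% in the remainder and 5% in window 1. Sites with no other interval within 100 kb were 5 of 42 in window 1 (11.9%, 3.98 to 25.6), 1 of 265 in window 4 and 0 in windows 2 and 3. The share was 0.539% in the remainder and 4.74% over the whole list. The confidence interval of window 1 leaves out the former and includes the latter.

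**Figure D5:**
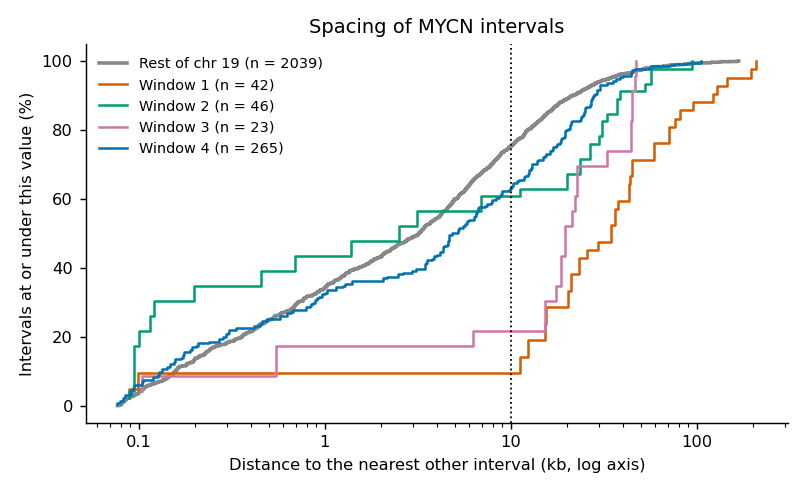
Share of intervals whose nearest other interval lies at or under each distance in kb (log axis), for each window and for the remainder of chromosome 19, with a dotted line at 10 kb. Windows 1 and 3 stay nearly flat from 1 to 10 kb, at 9.52% and 21.7%, where the remainder has reached 75.3%.

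The window borders are round positions, and most of them fall between sites of ordinary strength. The members nearest to the borders had fold enrichments of 3.19 to 6.06. The summits just outside had 2.42 to 5.33, apart from 44278736, which lay 21.3 kb before window 3 with a fold enrichment of 13.6 and 211 ChIP fragments. The last member of window 1, at 24270218, was followed by 3.93 Mb with no summit, which takes in the centromere.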

How the data were processed

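ChIP-seq of MYCN in Kelly cells was analysed from the deposited peak list. The submitters' processing notes name MACS2 2.1.1, STAR 2.5.1b, deepTools 2.2.4, Picard, SAMtools 1.3.1 and the build hg19, without roles. Neither the settings nor the merging of both samples was given in the sources used here. For each summit the authors deposited a fold ratio over local background, a −log10 p-value, a −log10 q-value and an integer score (10 times the −log10 q-value, truncated to a whole number, used here for nothing).

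Positions are counted from 1. ChIP fragments and background were solved from fold and p on the assumption that MACS2 forms the ratio after adding 1 to the scaled ChIP coverage and to the background, and takes p from the upper Poisson tail. With a scale of 0.641, whole fragments matched −log10 p to within 0.0005 at 64657 of 64657 summits, and for members the solution was unique. The procedure was tested on simulated data. Shares carry exact Clopper-Pearson 95% intervals, medians exact binomial intervals, densities exact Poisson intervals and density ratios conditional binomial intervals. Library depths are unknown, and fragments counted without molecular identifiers need not be independent. The fewest ChIP fragments at any listed summit were 13.

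Sites named are, over all windows, the 10 highest and 5 lowest fold enrichments, the 5 summits with most ChIP fragments, the 5 fullest bins and the 5 longest gaps, in each window the strongest summit by both measures and the widest interval, and the summits at each border. Other positions were chosen after their values were seen. The windows and measures were chosen with earlier results of these data known. Thresholds on q and fold, leaving out each window, the strongest summit of each interval, other comparison regions and other distances were tried as alternatives. Overlap with the resistant list, gene assignment and E-boxes at summits were not run, because both lists are the same and the reference tables are of another build. Python 3.11.15, numpy 2.4.6, pandas 2.3.3, scipy 1.17.1 and matplotlib 3.10.9 were used.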

Additional observations from a re-analysis of the deposited data

How the results depend on the processing

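No paired analysis was possible because a single peak list stands for both ChIP samples. Of 53 alternative values for 7 results, 29 stayed within the 95% interval of the reported value. The density ratio of 0.646 stayed under 1 in all 10 alternatives. It rose to 0.857 without window 1 and fell to 0.394 without window 4, and the other 8 values ran from 0.608 to 0.686. With a −log10 q-value of at least 5, the median fold enrichment was 5.35, the median ChIP fragment number 76, the share of intervals with a neighbour within 10 kb 47.4% and the share with 1 summit 75.9%. With at least 10 these were 5.95, 90.5, 40.1% and 78.9%, the share of summits with a fold enrichment of at least 10 was 13.6% and the median background 9.0. The remainder of the chromosome moved alike under this threshold, with a median fold enrichment of 6.07 and 13.6% of summits at 10 or more. Without window 1, the median ChIP fragment number was 72.5 and the share with a neighbour within 10 kb 59.9%. Without window 4, the median fold enrichment was 4.53, the background 7.0, the ChIP fragment number 56, the share with a neighbour 33.3% and the share with 1 summit 62.2%. For the strongest summit of each interval, the median fold enrichment was 5.50, the share at 10 or more 12.5% and the ChIP fragment number 74.5. The share with a neighbour was 44.4% within 5 kb and 70.5% within 20 kb. No alternative without window 2 or 3 left the interval. Only called peaks are in the list, so weaker binding in the sparse windows could not be seen. The fewest ChIP fragments at a listed summit were 13 over the whole list, 18 among members and 21 in window 1.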

Other observations

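The RefSeq promoters of zinc-finger genes, which were not matched to any summit, were searched for the E-box CACGTG, whose letters read the same on both strands. Each promoter spans 300 bases on GRCh38.p14, from 250 before to 50 after the gene's start. The motif occurred in 10 of 229 promoters of zinc-finger genes on chromosome 19 (4.37%, 95% CI 2.11 to 7.88), in 84 of 956 promoters of other protein-coding genes of that chromosome (8.79%, 7.07 to 10.8) and in 8.88% of all 15843 protein-coding promoters in the table (8.44 to 9.33). The zinc-finger promoters had a median GC content of 60% and a median of 20 CpG, against 64% and 21 in the others. They include genes outside the windows. Not every gene of chromosome 19 is covered: 229 zinc-finger promoters stand beside 266 zinc-finger genes, and 956 others beside 1451 protein-coding genes in all. A missing match says only that these letters are not in this stretch, and whether MYCN occupied any of these promoters was not determined.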
